A study of Saccharomyces cerevisiae with 3 samples.

Results

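The genes described here encode the yeast factors that start, extend and end protein synthesis. They were chosen by name as a list of 43 genes, of which 42 had at least 1 named probe on the array, out of 5325 genes with a named probe. TEF1, which encodes the elongation factor eEF1A together with TEF2, was the member without a named probe. Genomic DNA from a pool of tagged Saccharomyces cerevisiae strains was compared on 3 two-colour arrays, 1 each for cycloheximide, rapamycin and tunicamycin. Per the labels, the pool was a variomics library of essential genes, in which a strain holds many sequence variants of its gene and is marked by short DNA tags. The drug-selected DNA was labelled with Cy5 and the untreated DNA of the same pool with Cy3, and all cells, the untreated included, had been sporulated and grown in selective medium. The sample descriptions carry the amounts 30 ng (cycloheximide), 20 ng (rapamycin) and 3 "vg" (tunicamycin), and the rapamycin description has the word "single" in place of pool. The sources used here do not explain these words and give neither the strain background nor a roster of the pool.

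Translation initiation brings the ribosome to the start codon of an mRNA. The factor eIF2 carries the initiator tRNA, eIF2B recharges eIF2 with GTP, eIF3 holds the preinitiation complex together, and the cap-binding factors of the eIF4 family recruit the mRNA. Elongation factors then deliver tRNAs and move the ribosome along, and release factors free the finished chain at a stop codon. Most of these proteins come from single genes that yeast cannot live without, whereas several elongation and cap-binding factors are made from gene pairs of which either copy can be lost. Cycloheximide blocks elongation at the large ribosomal subunit, rapamycin inhibits the TOR kinase, which promotes translation, and tunicamycin blocks N-linked glycan synthesis. The values below come from strain tags in DNA and measure neither the expression nor the activity of these factors. For a gene outside the essential pool there may be no strain, and its spots would then read background.

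Each value printed is a log2 ratio from which the array median was taken away, so that 0 stands for the typical spot. No direction is recorded with the ratio, and a low value is read as less drug-selected than untreated DNA, as the dyes named in the labels make likely. The value of a gene averages its measured probes, ± gives the SD between those probes, and n counts them (2 where no n is printed with an SD). The arrays gave 18680, 19558 and 19098 measured spots of 22575 for cycloheximide, rapamycin and tunicamycin, and the channel signals behind them were not analysed here, so their depth is unknown. With 1 array per drug and no replicate, differences between drugs or groups of genes could not be tested and no p-values are given. Depletion was called by a rule of size, which asked for 2 or more measured probes, a gene value 3 or more spread units below 0 and every probe 2 or more units below 0. With the scaled median absolute deviation of all gene values as the spread unit, the threshold was -2.77 (cycloheximide), -3.17 (rapamycin) and -2.74 (tunicamycin) in log2 units. Calls of enrichment used the same rule on the other side. As a check of direction, the TOR kinase gene TOR2 was enriched at 10.40 under rapamycin and ALG7, which encodes the enzyme that tunicamycin blocks, at 7.19 under tunicamycin. RPL28, a ribosomal protein gene in which cycloheximide resistance is known, had 2.76 ± 2.33 under cycloheximide and was not called, so the direction of that array has no called check.

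Strains of many essential translation factors were depleted after selection with each drug, and no translation factor was enriched on any array. Under cycloheximide 13 of the 38 members with at least 2 measured probes were depleted (34.2%), where 15.2% of all genes tested were depleted. That count was 6 with both thresholds of the rule 1 unit stricter, and 0 when spots equal to ratios of small whole numbers were left out, which widened the spread unit from 0.924 to 1.64. Under tunicamycin it was 11 of 38 (28.9%, against 13.6% of all genes), and under rapamycin 7 of 23 (30.4%, against 6.45%). Every depleted member is a gene that textbooks list as essential. Enriched members numbered 0 on each array, and 0.0485%, 0.0747% and 0.12% of all genes tested were enriched under cycloheximide, rapamycin and tunicamycin. The highest gene value of any member was 1.02 ± 1.49 (SD, n = 8) under cycloheximide (CAM1), 1.74 (n = 1) under rapamycin (ANB1) and 1.21 ± 0.803 (n = 7) under tunicamycin (EFT1).

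The 26 essential members and the 17 non-essential ones occupied different ranges. The median of the essential members was -2.87 under cycloheximide, -5.32 under rapamycin and -3.67 under tunicamycin, over 26, 25 and 26 measured genes. That of the non-essential members was 0.31, -0.31 and 0.32 over 16, 16 and 15 genes, and the median of all genes was -0.04, -0.21 and -0.09. The ranges overlapped, since the essential members reached up to 0.94, 0.65 and 0.72 and the non-essential ones down to -1.85, -5.14 and -0.81. Among those with 2 or more measured probes, cycloheximide depleted 13 of 25 essential members (52.0%), rapamycin 7 of 9 (77.8%) and tunicamycin 11 of 24 (45.8%), against 0 of 13, 0 of 14 and 0 of 14 non-essential members. On the same arrays 15.2%, 6.45% and 13.6% of all genes tested were depleted. For genes with 2 probes, as all essential members have, the share was 19.2%, 8.12% and 17.2%. For genes with 12 probes, as 10 non-essential members have, it was 0.256%, 0.384% and 0.128%. Essentiality and presence in the pool cannot be told apart here, so the contrasts between essential and non-essential members may set strains against background spots. The 9 essential members tested under rapamycin are those whose probes both gave a value there, and empty spots took 34.6% of the essential members' probes on that array against 8.96% of those of the non-essential members.

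**Figure D1:**
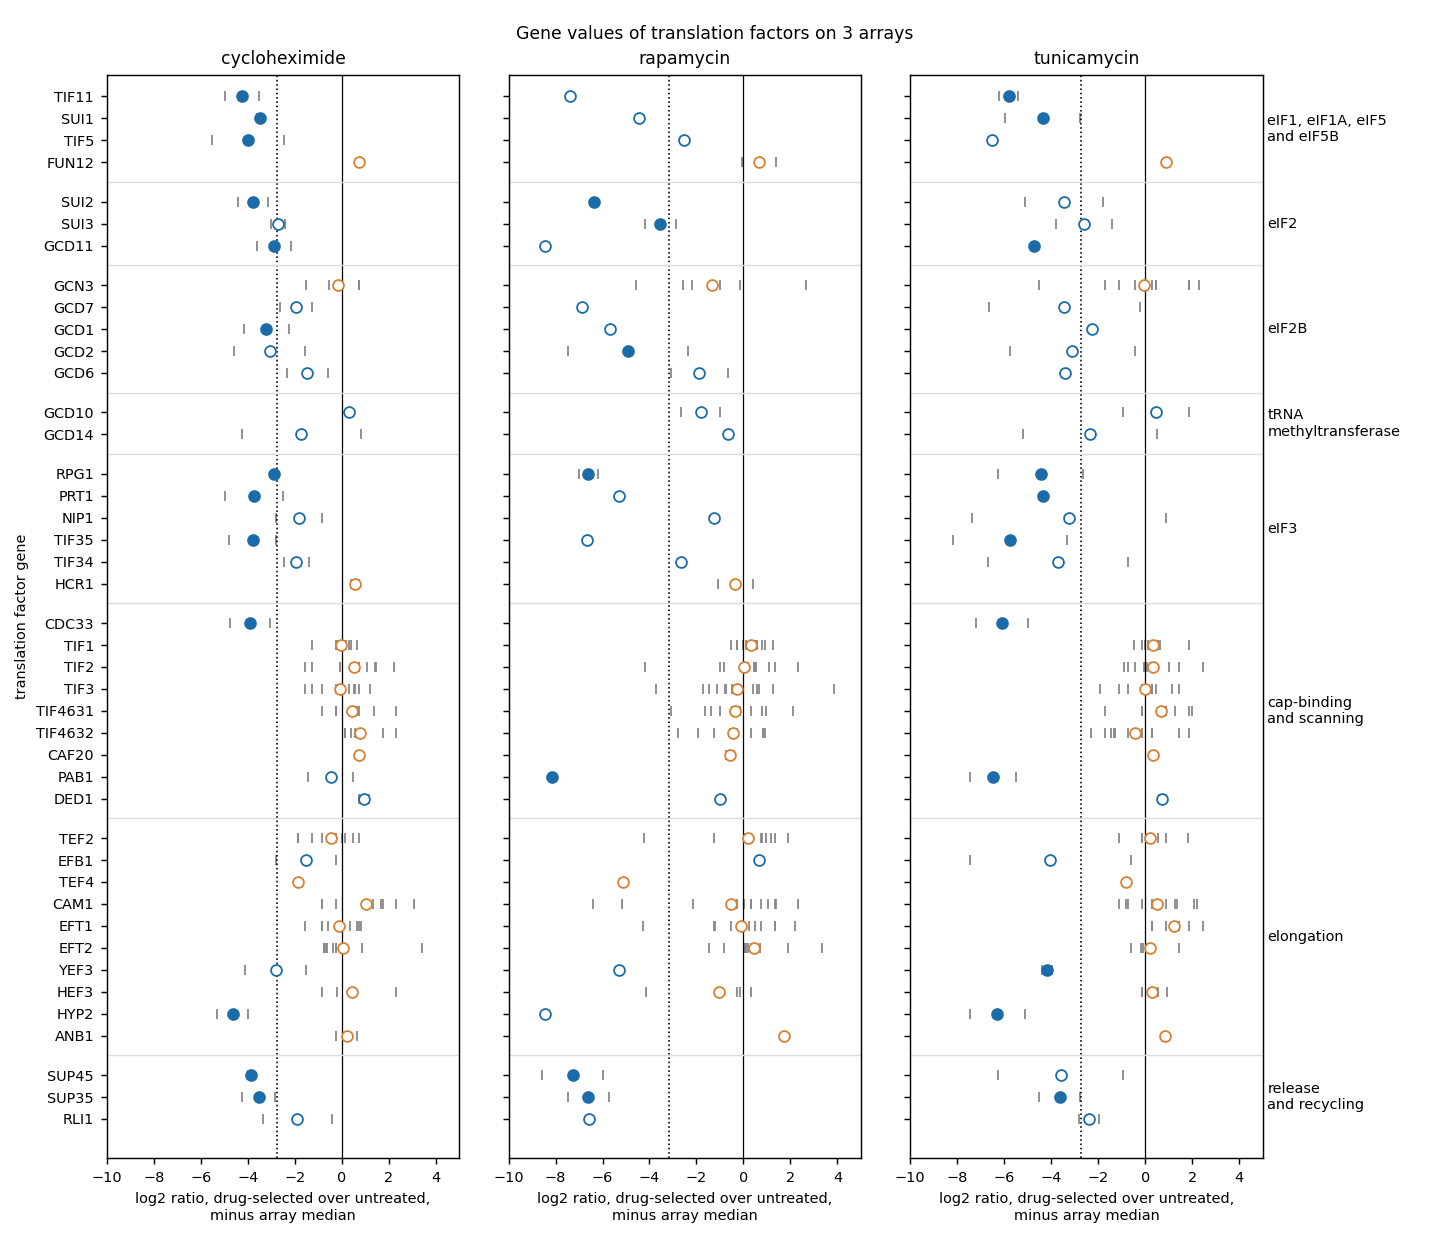
Gene values of the 42 measured translation factors on the 3 arrays, in log2 units relative to the array median, ordered by role. Circles are gene values (blue for essential, orange for non-essential genes, filled where depleted), grey ticks are single probes, and the dotted line marks 3 spread units below 0. All filled circles are blue.

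The members also differed in how the array represents them. All 26 essential members had exactly 2 probes, while 10 of the non-essential members had 12 probes, 5 had 2 and HEF3 had 4. Over the whole array, genes with 2 probes were depleted in 19.2%, 8.12% and 17.2% of cases under cycloheximide, rapamycin and tunicamycin, and genes with 12 probes in 0.256%, 0.384% and 0.128%. The closest background for the essential members is therefore the set of genes with 2 probes. Ratios of small whole numbers (up to 10, matched on the log2 scale to 3 decimals) made up 66.5%, 41.0% and 64.3% of all measured spots on the 3 arrays. Among the probes of the essential members this share was 15.7%, 14.7% and 14.0%, and among those of the non-essential members 72.7%, 41.2% and 73.4%.

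**Figure D2:**
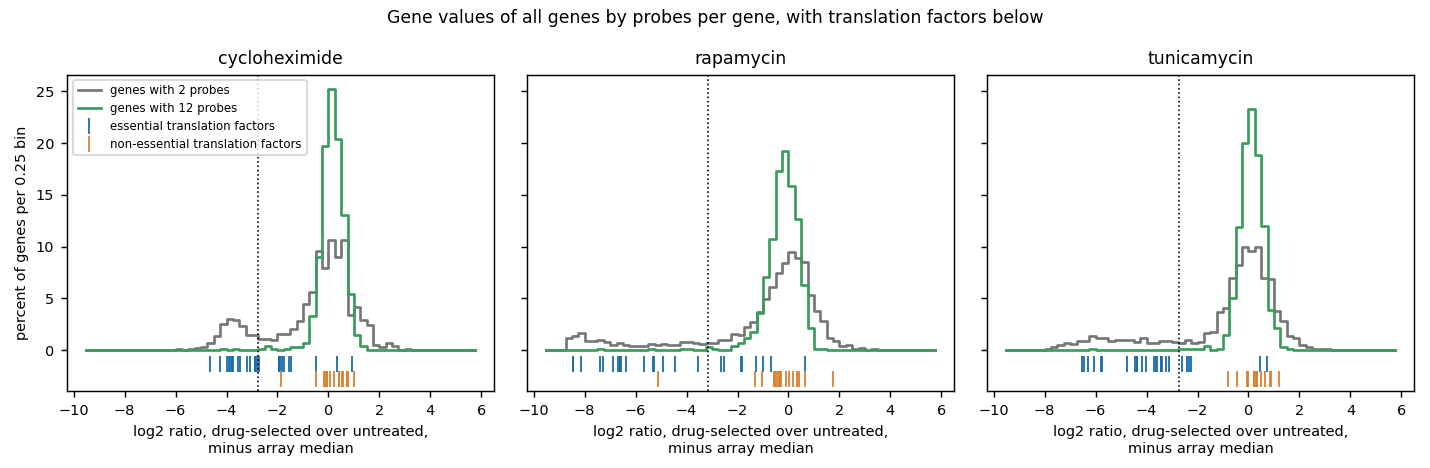
Percent of genes in each bin of 0.25 log2 units, for genes with 2 probes (grey) and with 12 probes (green) on the 3 arrays. Blue and orange ticks below the histograms are the essential and non-essential translation factors, and the dotted line marks 3 spread units below 0. The genes with 2 probes have a lower tail in which most blue ticks lie, and most orange ticks lie under the peak at 0.

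The essential factors that join at the start codon were depleted wherever both probes could be read. TIF11 (YMR260C), which encodes the scanning factor eIF1A, had -4.24 ± 1.01 (n = 2) under cycloheximide, -7.40 (n = 1) under rapamycin and -5.80 ± 0.576 (n = 2) under tunicamycin. SUI1 (YNL244C), the gene of eIF1, which guards start codon choice, had -3.48 ± 0.151, -4.45 (n = 1) and -4.36 ± 2.25. TIF5 (YPR041W) encodes eIF5, the GTPase activator of eIF2, and had -3.99 ± 2.18, -2.51 (n = 1) and -6.53 (n = 1). All 3 genes were called under cycloheximide, and TIF11 and SUI1 also under tunicamycin, where TIF5 had too few probes. On these arrays 19.2% and 17.2% of all genes with 2 probes were depleted. FUN12 (YAL035W), the gene of the subunit-joining factor eIF5B, which cells can lose at the cost of slow growth, stood at 0.74 (n = 1), 0.66 ± 1.04 and 0.87 ± 0.00. It was above all 3 of the others on each array, but it may have no strain in the pool. Its measured spots under cycloheximide and tunicamycin were deposited as a log2 ratio of 0. Their values are therefore the array median with its sign changed.

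The 3 subunits of eIF2, each from a single essential gene, lay below 0 on all arrays. SUI2 (YJR007W), the alpha subunit and target of the Gcn2 kinase, had -3.77 ± 0.908 under cycloheximide, -6.38 ± 0.0283 under rapamycin and -3.44 ± 2.34 under tunicamycin. Its probes agreed closely under rapamycin, at -6.36 and -6.40, and stood apart under tunicamycin, at -5.10 and -1.79, where it was not called. GCD11 (YER025W), the GTP-binding gamma subunit, had -2.87 ± 1.02, -8.44 (n = 1) and -4.75 ± 0.121. SUI3 (YPL237W), the beta subunit, was nearest to 0 of the 3 on each array, at -2.71 ± 0.395, -3.53 ± 0.936 and -2.62 ± 1.69, and was called under rapamycin. Its cycloheximide value missed the threshold of -2.77 by little, and that of GCD11 passed it by little.

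In eIF2B, the exchange factor of eIF2, calls were few and the 2 probes of a gene often differed. GCD1 (YOR260W), the gamma subunit, had -3.21 ± 1.35 under cycloheximide, where it was depleted, -5.67 (n = 1) under rapamycin and -2.26 ± 0.136 under tunicamycin. GCD2 (YGR083C), the delta subunit, was depleted under rapamycin at -4.91 ± 3.61 and had -3.07 ± 2.16 and -3.11 ± 3.76 under cycloheximide and tunicamycin, with the lower-numbered probe nearer to 0 each time. GCD7 (YLR291C), the beta subunit, had -1.94 ± 0.963, -6.89 (n = 1) and -3.44 ± 4.53. GCD6 (YDR211W), which encodes the catalytic epsilon subunit, had -1.47 ± 1.25, -1.88 ± 1.70 and -3.40 (n = 1) and was not called. GCN3 (YKR026C), the alpha subunit and the only one that is dispensable, had -0.17 ± 0.844 (n = 6), -1.32 ± 2.07 (n = 8) and -0.06 ± 2.04 (n = 10). On each array GCN3 lay closer to 0 than the 4 essential subunits. Over the 7 essential genes of eIF2 and eIF2B the median was -2.87, -5.67 and -3.40, and 3 of 7, 3 of 4 and 1 of 6 genes with 2 measured probes were depleted under cycloheximide, rapamycin and tunicamycin. Of all genes with 2 probes 19.2%, 8.12% and 17.2% were depleted, so the tunicamycin count of 16.7% is near the background.

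GCD10 (YNL062C) and GCD14 (YJL125C) were found in the same genetic screens as the eIF2B genes, but their products form the tRNA methyltransferase that modifies initiator tRNA. GCD10 was not depleted and had 0.32 (n = 1), -1.82 ± 1.17 and 0.47 ± 1.98 in the order of cycloheximide, rapamycin and tunicamycin. GCD14 had -1.73 ± 3.59, -0.68 (n = 1) and -2.35 ± 4.03. In GCD14 the higher-numbered probe stood at -4.26 under cycloheximide and -5.20 under tunicamycin and was empty under rapamycin, while the lower-numbered probe stayed between -0.68 and 0.81 on all arrays.

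Among the eIF3 genes 3 of the 5 essential ones were depleted under cycloheximide and under tunicamycin. Of all genes with 2 probes 19.2% and 17.2% were depleted on these arrays. RPG1 (YBR079C), which encodes the largest subunit eIF3a, was 1 of 2 members called on all 3 arrays, with -2.87 ± 0.0552 under cycloheximide, -6.60 ± 0.571 under rapamycin and -4.46 ± 2.55 under tunicamycin. PRT1 (YOR361C), the eIF3b gene, had -3.73 ± 1.76, -5.32 (n = 1) and -4.36 ± 0.122. TIF35 (YDR429C), the RNA-binding eIF3g, had -3.80 ± 1.39, -6.67 (n = 1) and -5.76 ± 3.42. These 3 genes were called on every array where both of their probes were measured. The cycloheximide value of RPG1 passed the threshold of -2.77 by little. NIP1 (YMR309C), the eIF3c gene, had -1.83 ± 1.39, -1.26 (n = 1) and -3.26 ± 5.84, and TIF34 (YMR146C), the eIF3i gene, had -1.93 ± 0.755, -2.65 (n = 1) and -3.69 ± 4.22. Under tunicamycin their lower-numbered probes stood at -7.39 and -6.67 and their higher-numbered ones at 0.87 and -0.71. HCR1 (YLR192C), the dispensable eIF3j, had 0.58 ± 0.228 and -0.35 ± 1.05 under cycloheximide and rapamycin and no measured probe under tunicamycin. The median of the 5 essential subunits was -2.87, -5.32 and -4.36.

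The values of the cap-binding and scanning factors differed from gene to gene. CDC33 (YOL139C), the single gene of the cap-binding protein eIF4E, was depleted under cycloheximide at -3.90 ± 1.18 and under tunicamycin at -6.08 ± 1.56, and both of its probes were empty under rapamycin. The remaining eIF4 genes, none of them essential alone, stayed near 0. TIF4631 (YGR162W) and TIF4632 (YGL049C), which encode the scaffold eIF4G, ranged from -0.45 to 0.78 over the 3 arrays with 8 to 11 probes each. TIF1 (YKR059W) and TIF2 (YJL138C), which encode the helicase eIF4A, ranged from -0.04 to 0.52. TIF3 (YPR163C), the eIF4B gene, ranged from -0.28 to -0.02. CAF20 (YOR276W), an inhibitor that competes with eIF4G for eIF4E, ranged from -0.58 to 0.74. These non-essential genes may have no strain in the pool. Under cycloheximide small whole-number ratios took 8 of 8 measured spots of TIF4632 and 8 of 9 each of TIF2 and TIF3. They took 7 of 9 in TIF4631, 3 of 9 in TIF1 and 1 of 1 in CAF20.

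PAB1 (YER165W), which encodes the poly(A)-binding protein that joins the mRNA tail to eIF4G, differed most between drugs among the members with 2 measured probes on all arrays. It had -0.47 ± 1.35 under cycloheximide, with probes at 0.48 and -1.42, and was not called. Under rapamycin it had -8.15 ± 0.144, with probes at -8.25 and -8.05, which is 284-fold below the array median. Under tunicamycin it had -6.47 ± 1.39, with probes at -7.45 and -5.48. Both probes were thus low on 2 arrays and near 0 on the third, and with 1 array per drug this difference was not tested. DED1 (YOR204W), an essential helicase of scanning with the paralog DBP1, was not depleted and had 0.94 ± 0.293, -1 (n = 1) and 0.72 ± 0.212. DED1 and GCD10 were the 2 essential members with no probe 3 or more spread units below 0 on any array. Whether their strains were in the pool is not stated in the labels.

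Of the elongation factors, the essential genes HYP2 and YEF3 were low on each array, and the essential EFB1 was above 0 under rapamycin. The redundant genes lay nearer to 0 than HYP2 and YEF3, though TEF4 under rapamycin only by little. HYP2 (YEL034W), the main gene of eIF5A, which helps the ribosome past difficult stretches and is the known protein that carries hypusine, had the lowest value of any member under cycloheximide. It had -4.64 ± 0.926 under cycloheximide, -8.44 (n = 1) under rapamycin and -6.29 ± 1.63 under tunicamycin, and the cycloheximide and tunicamycin values are 24.9-fold and 78.2-fold below the array median. YEF3 (YLR249W), which encodes eEF3, a factor best known from fungi, had -2.81 ± 1.85, -5.28 (n = 1) and -4.17 ± 0.290. Under cycloheximide its gene value passed the threshold but its probe at -1.50 did not, and it was called under tunicamycin only. EFB1 (YAL003W), the exchange factor of eEF1A, was not called and had -1.54 ± 1.81, 0.65 (n = 1) and -4.03 ± 4.83. Its higher-numbered probe lay between -0.62 and 0.65 on all arrays and was the only one measured under rapamycin, whereas the lower-numbered probe stood at -2.82 under cycloheximide and -7.45 under tunicamycin.

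The redundant elongation genes were not called on any array, but most of them could hardly be called. The rule asks every measured probe to be low. Of all genes with 12 probes, as TEF2, EFT1, EFT2 and CAM1 have, 0.256%, 0.384% and 0.128% were called under cycloheximide, rapamycin and tunicamycin. TEF4 had too few measured probes for a call under cycloheximide and rapamycin. TEF2 (YBR118W), for eEF1A, ranged from -0.47 to 0.20. EFT1 (YOR133W) and EFT2 (YDR385W), for the translocase eEF2, ranged from -0.13 to 1.21. CAM1 (YPL048W), 1 of 2 genes for the gamma subunit of eEF1B, had 1.02 ± 1.49 (n = 8), -0.54 ± 2.69 (n = 12) and 0.51 ± 1.15 (n = 11). TEF4 (YKL081W), the other gene of that subunit, was lower, with -1.85 (n = 1) under cycloheximide, -5.14 (n = 1) under rapamycin and -0.81 ± 0.141 (n = 2) under tunicamycin. On the rapamycin array single low spots also occurred in genes with 12 probes, of whose spots 4.48% lay 3 or more spread units below 0, against 1.25% and 0.922% on the cycloheximide and tunicamycin arrays. CAM1 itself had such spots at -6.39 and -5.19 there.

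Termination and recycling genes, all single and essential, had values below 0 on each array. SUP35 (YDR172W), which encodes the release factor eRF3, known also for its prion form, was called on all 3 arrays, at -3.54 ± 1.02 under cycloheximide, -6.60 ± 1.22 under rapamycin and -3.64 ± 1.22 under tunicamycin. SUP45 (YBR143C), for the stop codon reader eRF1, had -3.88 ± 0.153, -7.27 ± 1.84 and -3.59 ± 3.76, and was called on the first 2 arrays. Under tunicamycin its probes stood at -6.25 and -0.93. RLI1 (YDR091C), the ATPase that splits ribosomes after termination, had -1.88 ± 2.10, -6.58 (n = 1) and -2.40 ± 0.602 and was not called. SUP35 and RPG1 were the only members called under all 3 drugs, 10 members were called under 2 and 5 under 1. A call under all 3 required 2 measured probes on every array, and under rapamycin only 9 of 26 essential members had both. TIF11, SUI1, GCD11, PRT1, TIF35, CDC33 and HYP2 were called on each array where both of their probes were measured. Of all genes with 2 probes, 19.2%, 8.12% and 17.2% were depleted under cycloheximide, rapamycin and tunicamycin. The same overlap over all genes was not counted, so the overlap is not read as a trait of these members.

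The comparison of gene copies asked whether duplicated factors stand apart from single-copy ones. Of the 15 duplicated members 14 had a probe, and their medians were 0.13, -0.39 and 0.32 under cycloheximide, rapamycin and tunicamycin, against -2.33, -4.45 and -3.44 for the 28 single-copy members. Copy number and essentiality go together in this list, so the members were also divided by both. The 23 single-copy essential genes had medians of -2.87, -5.49 and -3.64, and the 3 duplicated essential genes, YEF3, HYP2 and DED1, had -2.81, -5.28 and -4.17. The latter medians are the values of YEF3, as the 3 genes ranged from -4.64 to 0.94, -8.445 to -1.0 and -6.29 to 0.72. Under rapamycin each of the 3 had 1 measured probe. The 5 single-copy non-essential genes had 0.58, -0.35 and 0.15, and the duplicated non-essential genes 0.20, -0.10 and 0.32. The median of single genes minus that of duplicated genes was -0.06, -0.22 and 0.53 among essential genes and 0.37, -0.25 and -0.17 among non-essential genes on the 3 arrays. At the same copy number, the non-essential median was above the essential one by 3.45, 5.15 and 3.79 for single genes and by 3.01, 5.18 and 4.49 for duplicated genes. No test was made of these differences, and those that use the duplicated essential genes rest on the median of 3 widely spread values.

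Pairs with 1 essential copy set a gene of the labelled pool against a twin that may have no strain in it. Small whole-number ratios took 2 of 3, 2 of 4 and 3 of 4 measured spots of HEF3, and 1 spot of ANB1 on each array. HYP2 lay below its hypoxic twin ANB1 (YJR047C), which had 0.20 ± 0.660, 1.74 (n = 1) and 0.83 ± 0.0615, by 4.84, 10.18 and 7.12 log2 units on the cycloheximide, rapamycin and tunicamycin arrays. The rapamycin difference rests on 1 spot of each gene. That of HYP2, at -9.77 as deposited, lay close to the lowest ratio of the array, -9.996. YEF3 lay below its little-expressed twin HEF3 (YNL014W), at 0.42 ± 1.68 (n = 3), -1.05 ± 2.07 (n = 4) and 0.31 ± 0.524 (n = 4), by 3.23, 4.23 and 4.48. On the tunicamycin array all probes of HYP2 and YEF3 were lower than all probes of their twins. In the pairs TIF1/TIF2, TIF4631/TIF4632 and EFT1/EFT2, in which neither copy is essential alone, the copies differed by at most 1.12 log2 units on any array, which is less than the larger of the 2 SDs between probes. EFT1 against EFT2 under tunicamycin was the exception to that, at 1.21 ± 0.803 and 0.22 ± 0.527. DED1 and DBP1, the latter at 0.53 ± 0.293, -0.06 ± 1.96 and -0.42 ± 1.83, were both near 0.

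**Figure D3:**
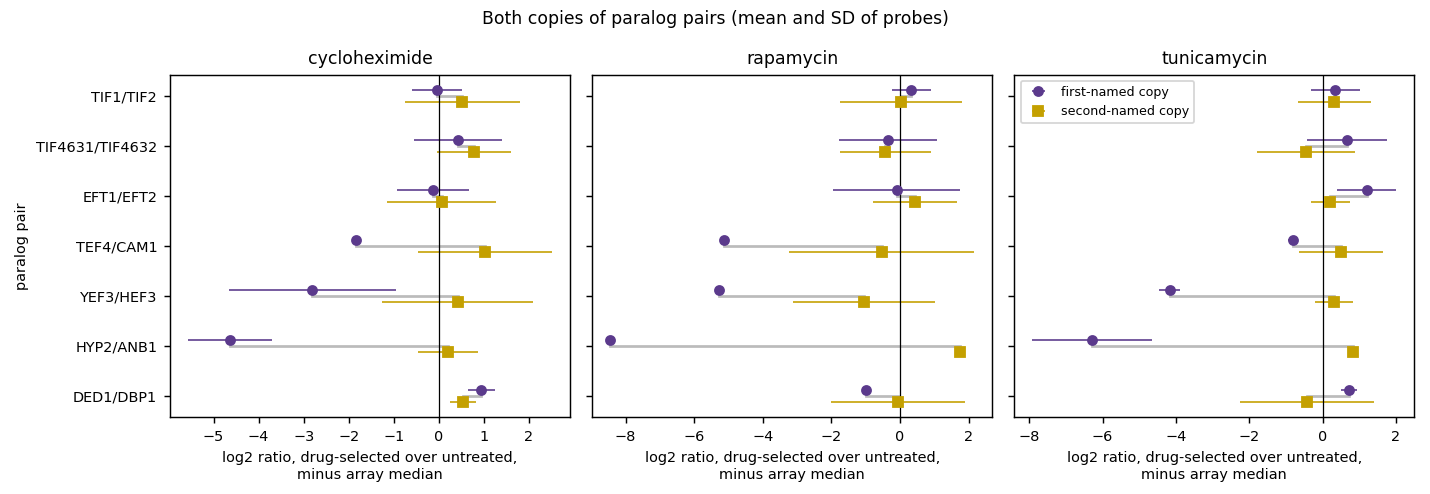
Gene values of both copies of 7 paralog pairs on the 3 arrays, in log2 units relative to the array median, with bars for the SD between probes where at least 2 were measured. HYP2 and YEF3 lie far to the left of ANB1 and HEF3, and the pairs without an essential copy lie near 0, except TEF4.

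The 2 probes of an essential member often disagreed, and in 5 of the 26 the same probe stayed near 0 wherever it was measured. In these, GCD7, GCD6, GCD14, NIP1 and EFB1, picked out after the values were seen, 1 probe lay within 2 spread units of 0 on every array where it was measured, while its partner passed 3 units below 0 on at least 1 array. The near-zero probe was the lower-numbered one in GCD14 and the higher-numbered one in the other 4, and in GCD7 and GCD6 it was measured on 2 arrays. In other members it was not constant, as in RLI1, whose lower-numbered probe had -0.40 under cycloheximide and -6.58 under rapamycin, and in PAB1. Counted by single probes, 20, 17 and 23 of the 26 essential members had at least 1 probe 3 or more spread units below 0 under cycloheximide, rapamycin and tunicamycin, and 14 had one on all 3 arrays. Over the whole array, 17.5%, 14.5% and 17.9% of the measured spots of genes with 2 probes lay that low. That share is per spot, and the share of all genes with at least 1 such probe was not counted. Under cycloheximide the higher-numbered probe was the lower in value in 16 of 25 essential members with both measured, and under tunicamycin in 7 of 24. The annotation does not say which probe reads which tag of a strain.

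**Figure D4:**
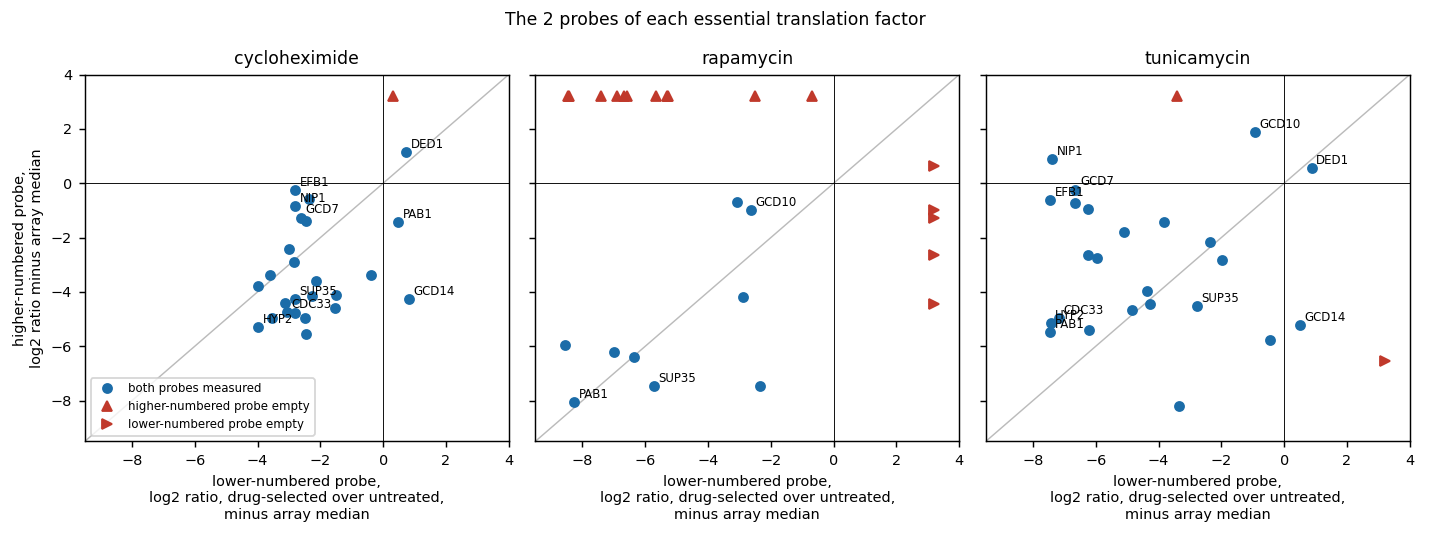
Values of the lower-numbered (x axis) and higher-numbered (y axis) probe of each essential member on the 3 arrays, in log2 units relative to the array median. Red triangles at the edge are genes with 1 empty probe, and the grey line marks equal values. Many points lie off the line, among them NIP1, EFB1, GCD7 and GCD14 under tunicamycin.

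Missing spots limited the rapamycin array. Of the 26 essential members, 20 had the lower-numbered probe measured and 14 the higher-numbered one, and 9 had both. When 1 measured probe was allowed to suffice, 17 of 25 essential members (68.0%) and 1 of 16 non-essential ones (TEF4) passed the depletion rule, against 11.7% of all 5110 genes measured. Of the 25 essential members with a value on every array, 19 were lowest under rapamycin, 6 under tunicamycin and 0 under cycloheximide. The same order over all genes was not counted, and many of these rapamycin values rest on 1 probe. The arrays differ in spread as well, and members are not repeats of an array. This order is therefore not read as a difference between drugs. The lowest deposited log2 ratios of the rapamycin and tunicamycin arrays were -9.996 and -9.98, that of the cycloheximide array -8.22. Deposited rapamycin ratios of SUP45 at -9.89, HYP2 at -9.77 and GCD11 at -9.76 lay close to the lower end, so the order among the lowest members is not interpreted.

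Other genes of protein synthesis were set beside the members, with no test of the difference. The 18 cytosolic aminoacyl-tRNA synthetases, essential enzymes that load tRNAs, had medians of -3.20, -5.94 and -3.08 under cycloheximide, rapamycin and tunicamycin, and 10 of 18 (55.6%), 5 of 9 (55.6%) and 7 of 15 (46.7%) were depleted, against 15.2%, 6.45% and 13.6% of all genes tested. The share among all genes with 2 probes was 19.2%, 8.12% and 17.2%. TYS1 at -4.13 ± 1.09 under cycloheximide, WRS1 at -8.35 ± 0.126 under rapamycin and TYS1 at -7.16 ± 0.757 under tunicamycin were the lowest of those called. The essential genes DYS1, whose product starts hypusine synthesis on eIF5A, and TIF6, an anti-association factor of the large subunit, were depleted under cycloheximide (-3.71 ± 0.866 and -3.41 ± 0.957) and tunicamycin (-5.47 ± 0.279 and -6.02 ± 0.316). Both had 1 measured probe under rapamycin. Of the non-essential genes of translation control, quality control and nascent-chain folding, 0 of 19, 0 of 21 and 0 of 20 were depleted and none enriched, with medians of 0.28, -0.08 and -0.06 over 25 genes. The non-essential genes of amino acid and adenine synthesis had 0 of 41, 0 of 49 and 0 of 38 depleted and none enriched, with medians of 0.01, -0.02 and 0.09.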

How the data were processed

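The series table holds a log2 ratio per spot and array as deposited by the authors, on 3 two-colour tag arrays; for the steps that made it, from scan to normalization, the sources used here give nothing. Base 2 was read from the values. The value 16.61, the log2 of 100000, was taken as a code and left out (739 spots for cycloheximide, 196 for rapamycin, 526 for tunicamycin), as were 3156, 2821 and 2951 empty spots. Array medians of -0.74, -1.32 and -0.87 were subtracted. Probes were named through a platform annotation (18794 with 1 gene, 0 with several, 3781 unnamed), and 5321 of 5325 genes matched RefSeq assembly R64, used for names only. Roles, copy number and essentiality are textbook assignments made by hand. The members and lists were chosen with earlier results of these data known. Every member may be named, and of the other lists only called genes, at most 5 per list and drug, and the drug targets. The planned protein identity between paralogs was not computed because no protein sequences were used here. The calling rule was tested on simulated data. Calculations used Python 3.11.15, pandas 2.3.3 and NumPy 2.4.6. Alternatives were the centring, threshold, probe minimum, coded spots, probe summary, small whole-number ratios, quantile normalization and spread unit, and, added after seeing the data, the lower- or higher-numbered probes alone. The number of arrays limits the precision.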

Additional observations from a re-analysis of the deposited data

How the results depend on the processing

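The count of enriched members was 0 under every alternative run on each array. The count of depleted members under cycloheximide, 13, fell to 6 with thresholds of 4 units for the gene and 3 for each probe and to 0 when small whole-number ratios were left out, which raised the spread unit from 0.924 to 1.64. Leaving these ratios out gave 7 in place of 11 under tunicamycin. Under rapamycin 18 in place of 7 members were depleted when 1 measured probe sufficed, which tests 41 in place of 23 members. Without centring, the median of the essential members was -6.64 in place of -5.32 under rapamycin, and that of the non-essential members -0.55 in place of 0.32 under tunicamycin, shifts equal to the array medians. With higher-numbered probes only, the essential elongation factors had a median of 0.65 in place of -5.28 under rapamycin, where EFB1 was the only one of 3 with such a probe measured. Of the other values, 84 stayed within 1.5 times the count or within the SD between probes, 126 medians by role did so too, and 20 medians by role moved further without a change of sign. No paired analysis was possible because each drug has 1 array and no result comes from a test. Leaving out a replicate was not possible either.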

Other observations

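Among the members with 12 probes, TIF1 and EFT2, picked out after their values were seen, stood near 0 with small scatter in their lower-numbered probes. These 6 spots were measured on all 3 arrays with an SD under 0.5 on each, as in 25 of the 781 genes with 12 probes. In TIF1 these spots averaged 0.13 ± 0.333 under cycloheximide, 0.62 ± 0.385 under rapamycin and 0.18 ± 0.415 under tunicamycin. In EFT2 they averaged -0.53 ± 0.284, 0.19 ± 0.131 and 0.05 ± 0.353. Over all its probes EFT2 scattered more, with an SD of 1.21 under cycloheximide (n = 11) and 1.22 under rapamycin (n = 12). In their redundant partners TIF2 and EFT1 only 13 of the 18 such spots were measured, and 9 of these were small whole-number ratios, against 1 in TIF1 and 2 in EFT2.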
